A study of Homo sapiens with 20 samples.

Results

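The clustered protocadherin genes were described from H3K27ac peaks on human chromosome 5 between 140.15 and 140.90 Mb of build hg19, a window of 750 kb, with flanks of 200 kb on each side. Every deposited peak that overlapped the window by at least 1 bp was a member. There were 39 such peaks among the 458811 peaks of the 4 libraries. The flanks held 120 peaks, 1 of which crossed the border at the gamma end and counted in both. H3K27ac, acetylation of lysine 27 on histone H3, marks active promoters and enhancers.

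The cells were G401, an established line from a rhabdoid tumour, with the genotype SMARCB1(-/-). SMARCB1 belongs to the SWI/SNF complexes, which remodel chromatin. All libraries came from cells induced with doxycycline, in 1 arm to express GFP and in the other to express SMARCB1, with 2 H3K27ac libraries in each arm. G401 is 1 line, neither the dose nor the time of induction is given in the sources used here, and no uninduced cells were compared. The series has 20 samples in 10 groups, and those for H3K4me3, H3K4me1, SMARCA4 and input chromatin were not analysed here. Because the labels do not say whether libraries of an arm came from separate cultures, each p-value measures only the spread between libraries, which may be technical.

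Clustered protocadherins are cell surface proteins best known in neurons, where each cell expresses its own combination of them and uses it to tell its own processes from those of other neurons. The genes lie in the order alpha, beta and gamma. In the alpha and gamma clusters, each variable first exon has its own promoter and is spliced to constant exons at the end of the cluster, whereas each beta gene is a single exon. Most variable promoters carry a conserved sequence element with a CGCT core, to which CTCF binds when the promoter is in use. A distal enhancer of the alpha cluster lies between the alpha and beta genes, and further regulatory elements lie beyond the gamma constant exons.

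The lists named 53 genes, 15 of the alpha, 16 of the beta and 22 of the gamma cluster, and 47 of them had a promoter in the RefSeq table of build GRCh38.p14. In the order of RefSeq genes, SLC25A2 and TAF7 were the protein-coding genes among the clusters, ZMAT2 came before them and DIAPH1 after them. Stretches of 40 bases around the core are shown for genes of each cluster, because most of the members' promoters hold it. Each stretch is placed on the match to the letters GNCGCT that lay farthest upstream of the transcript start, in the first listed promoter with one. A match nearer to the start was not looked for. Whether a given match is the conserved element was not tested. Capitals mark the CGCT core, and all lie on the plus strand of chromosome 5, in GRCh38.p14 from chr5:140786080-140786119 for PCDHA1 to chr5:141475747-141475786 for PCDHGC3. Positions of that build are not those of hg19, in which the peaks are given.
PCDHA1: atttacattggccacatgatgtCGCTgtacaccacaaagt
PCDHA12: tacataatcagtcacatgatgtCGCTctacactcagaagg
PCDHAC1: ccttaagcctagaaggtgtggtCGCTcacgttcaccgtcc
PCDHB2: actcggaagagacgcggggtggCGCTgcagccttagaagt
PCDHB16: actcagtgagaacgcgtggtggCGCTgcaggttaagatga
PCDHGA3: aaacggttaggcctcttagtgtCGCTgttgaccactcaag
PCDHGA10: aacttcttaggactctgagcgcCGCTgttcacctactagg
PCDHGB4: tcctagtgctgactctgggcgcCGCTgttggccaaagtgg
PCDHGC3: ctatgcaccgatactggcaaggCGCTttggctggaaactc

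The letters GNCGCT, read on the strand of the gene, were found in 44 of the 47 genes with a promoter, namely 11 of 13 alpha, 14 of 14 beta and 19 of 20 gamma genes. On the gene strand, 92.3% of the 52 protocadherin promoters in the table held GNCGCT, against 28.4% of all 35116 promoters of the same 300 bases. Over either strand, these shares were 94.2% and 44.0%. A longer form, TGTCGCT, which contains GNCGCT, was in 10 alpha genes, 1 beta gene and 3 gamma genes. The form GGTGGCGCT was in 13 beta genes and in no alpha or gamma gene. Over either strand, all promoters held TGTCGCT in 1.76% and GGTGGCGCT in 0.501%, against 26.9% and 25% of the protocadherin promoters. On the gene strand, the shares of all promoters were 0.977% and 0.302%. In 43 genes a match lay before the transcript start, and the one farthest upstream lay at a median of 60 bases. It lay 38 bases before the start in PCDHA1, 55 in PCDHB2 and 46 in PCDHGA3. In PCDHGC3, one of the C-type genes next to the gamma constant exons, it lay 197 bases before the start, beyond the median of its cluster of 62.0 bases. This was not a trait of the C-type genes, since it lay at 62 bases in PCDHGC4 and at 199 in PCDHGB2, which is not of that type. PCDHA9, PCDHAC2 and PCDHGB7 held no GNCGCT on the gene strand in this window.

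No annotation of the peaks' own build was used, so genes could not be placed at single peaks. The window was divided by hand into sections that follow the gene order, with approximate borders: alpha from 140.15 to 140.40 Mb, the interval before the beta genes to 140.43 Mb, beta to 140.63 Mb, the interval holding SLC25A2 and TAF7 to 140.71 Mb, and gamma to 140.90 Mb. Libraries differed in the number of peaks and in background, and these did not rank the libraries alike. Peak number was therefore not taken as a measure of sequencing depth. GFP replicate 1 had 98251 peaks, GFP replicate 2 had 79555, SMARCB1 replicate 1 had 145533 and SMARCB1 replicate 2 had 135472. The background behind most peaks, recovered from fold and p, was 1.82 fragments in GFP replicate 1 and between 3.74 and 4.09 in the others. The fewest fragments at the summit of a called peak on that background were between 7 and 13. In SMARCB1 replicate 1 alone, summit fragments are counts before a scaling by 0.855, whereas its background is given after that scaling. Its fragments and background are therefore not in the same unit. Median fold over all peaks of a list was 4.60 and 3.99 in the GFP libraries and 3.72 and 3.68 in the SMARCB1 libraries, so fold values of different libraries are not on a common scale.

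The alpha and beta genes carried no H3K27ac peak in any of the 4 libraries. Acetylation shared by all 4 libraries stood at 2 places, in the interval between the beta and gamma genes and at the far end of the gamma section. Weak peaks of the GFP libraries lay between these places. The alpha section, the interval between alpha and beta, in which the distal alpha enhancer lies, and the beta section had 0 kb under peaks in both arms. The stretch without a peak in any library ran over chr5:140098490-140699879, which is 601.4 kb long. Of this, 549.9 kb lay within the clusters, 73.3% of the window. In single libraries the same stretch measured between 601.4 and 601.6 kb. It started between 140098380 and 140098490 and ended between 140699879 and 140699932, so both borders moved a little between libraries.

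**Figure D1:**
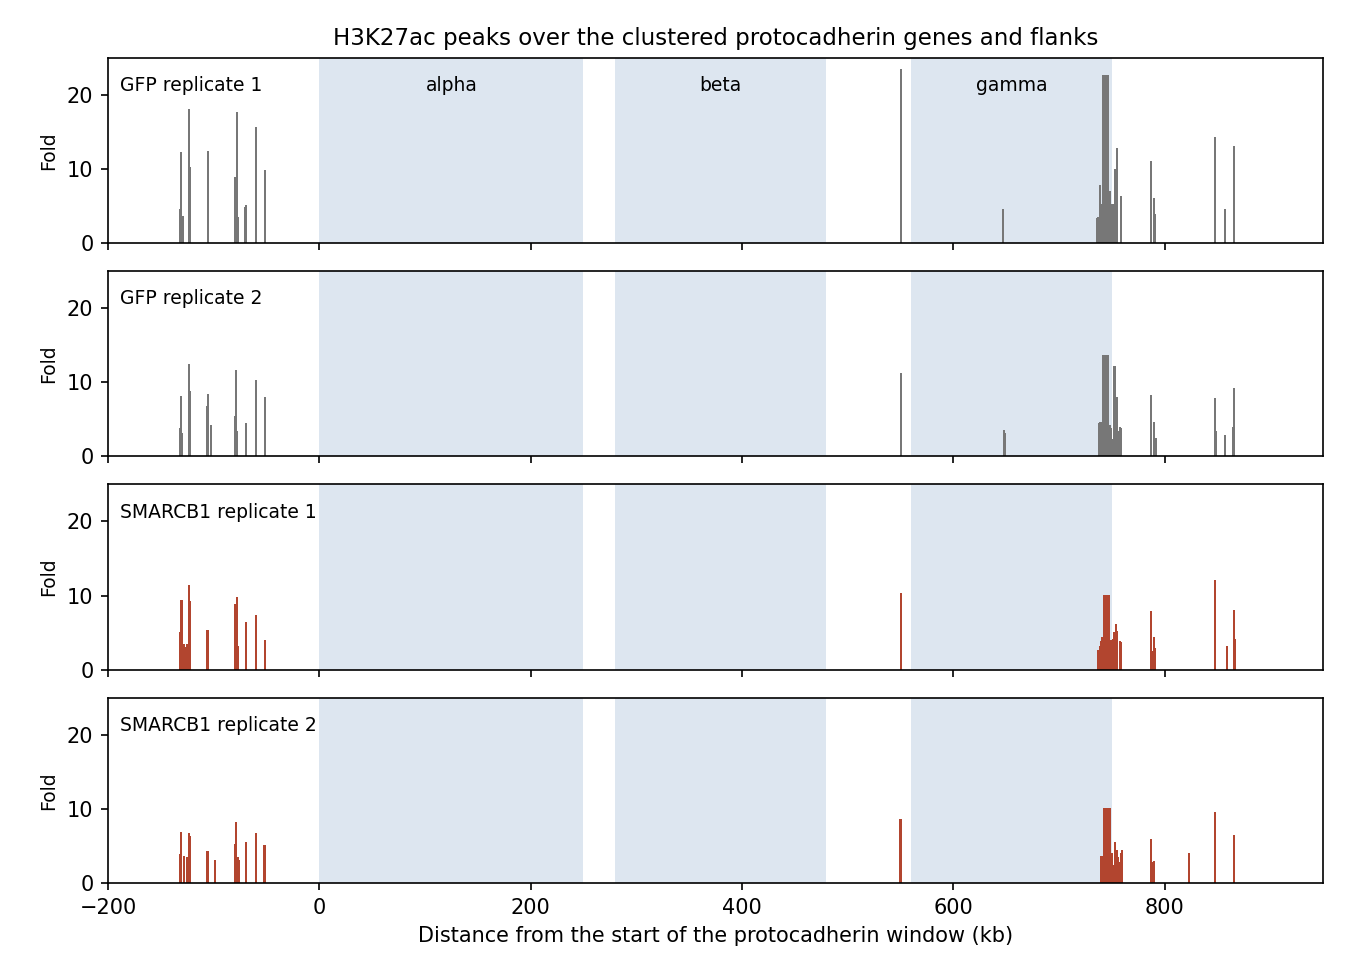
H3K27ac peaks of the 4 libraries by distance from the start of the protocadherin window (kb, horizontal) and fold enrichment at the summit (vertical), with the alpha, beta and gamma sections shaded and peaks drawn at least 2 kb wide so that they can be seen. The alpha and beta sections are empty in all 4 libraries. Peaks of all 4 stand near 550.2 kb and at the right end of the gamma section, with weak peaks of the GFP libraries between them.

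Long stretches of this kind are common by length but few in number. Of 167909 stretches between neighbouring peaks of the pooled lists, 0.516% were longer, and their median was 0.409 kb. Stretches at least as long as this one nevertheless held 56.4% of all sequence between peaks. Of 1109 stretches of at least 500 kb between peaks of the GFP libraries, 226 had no peak in either SMARCB1 library, which is 20.4%. The stretch over the alpha and beta genes was among those 226, and the median over the 1109 was 4 SMARCB1 peaks.

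Counted over bins of 10 kb, 5 of the 75 bins of the clusters had a peak in both GFP libraries, which is 6.67%, against 8.76% of all bins of the genome. A peak in both SMARCB1 libraries was in 4 of the 75 bins, which is 5.33%, against 12.2% of the genome's bins. In windows of the same 750 kb across the genome, the median length under peaks was 2.86 and 2.75 kb in the GFP libraries and 5.11 and 4.0 kb in the SMARCB1 libraries. The clusters had more than that in each library, and most of it lay at the end of the gamma section. The share of windows covered less than the clusters was 69.2% and 70.5% in the GFP libraries and 58.9% and 58.5% in the SMARCB1 libraries. These shares and medians include windows without any peak, which were 37.2% and 38.4% in the GFP libraries and 34.7% and 36.0% in the SMARCB1 libraries. No bin or window was left out for lack of mappable sequence.

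The GFP libraries had 10 and 12 peaks in the clusters, and the SMARCB1 libraries had 11 and 6. The arms overlapped, with means of 11 ± 1.41 and 8.50 ± 3.54 peaks (SD, n = 2 each, exact two-sided permutation p = 0.667). The length under peaks was 13.2 and 13.4 kb in the GFP libraries and 11.5 and 8.73 kb in the SMARCB1 libraries. Both SMARCB1 libraries lay below both GFP libraries. The difference of means was -3.14 kb (exact two-sided permutation p = 0.333, the smallest p that 2 libraries against 2 allow). It was -1.74 kb without SMARCB1 replicate 2, and -0.628 kb over the strongest 20000 peaks of each list. Per 100000 peaks of its list, the clusters held 10.2 and 15.1 peaks in the GFP libraries and 7.56 and 4.43 in the SMARCB1 libraries, a difference of -6.64 with the same exact permutation p of 0.333. The direction turned over the strongest 20000 peaks, where the difference was 2.50, and it was -4.18 without GFP replicate 2. The total number of peaks, by which this share is divided, was higher in both SMARCB1 libraries.

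In the flanks, peaks covered 19.6 and 19.4 kb in the GFP libraries and 20.9 and 16.8 kb in the SMARCB1 libraries, so the arms overlapped (difference -0.659 kb, exact two-sided permutation p = 1). Stricter lists gave larger differences in the flanks, with the arms apart: -3.09 kb over peaks with a -log10 q of at least 5, -3.59 kb with equal numbers of peaks and -7.98 kb over the strongest 20000, each with an exact permutation p of 0.333. The clusters gave -2.91, -3.68 and -0.628 kb under the same settings. It was 1.38 kb in the flanks without SMARCB1 replicate 2 and -2.70 kb without SMARCB1 replicate 1. The covered share of the clusters was 1.75% and 1.78% in the GFP libraries and 1.54% and 1.16% in the SMARCB1 libraries, against 4.90%, 4.85%, 5.22% and 4.2% of the flanks. The change in the clusters was not shown to differ from that in the flanks: the difference between them was -0.253 percentage points (exact two-sided permutation p = 1), and it was 0.385, 0.408 and 1.91 under those 3 settings.

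**Figure D2:**
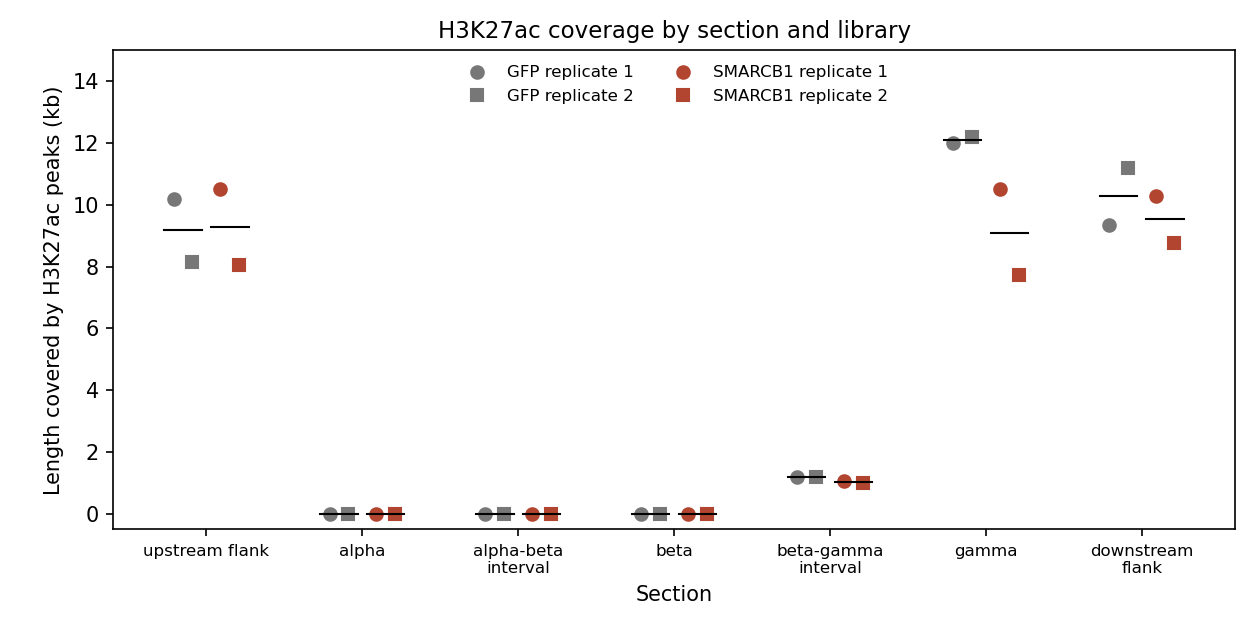
Length under H3K27ac peaks (kb) in each section of the clusters and in both flanks, with 1 point for each library and a black line at the mean of the 2 libraries of an arm. The alpha and beta sections and the interval between them are at 0 kb in all 4 libraries, and in the gamma section both SMARCB1 libraries (10.5 and 7.73 kb) lie below both GFP libraries (12 and 12.2 kb).

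The interval between the beta and gamma genes held 1 acetylated region, chr5:140699880-140701111, with a peak in all 4 libraries. TAF7, a subunit of the general transcription factor TFIID, and SLC25A2, a mitochondrial ornithine carrier, are the genes that RefSeq orders there, and neither is a protocadherin. Fold at the summit was 23.4 and 11.2 in the GFP libraries and 10.3 and 8.66 in the SMARCB1 libraries. The corresponding summits held 65, 58, 83 and 57 fragments, which overlapped between arms. The background behind these summits differed between libraries and was lowest in GFP replicate 1, so the counts are not on a common scale. Summits of the strongest peak lay between positions 140700136 and 140700176, within 0.1 kb of each other.

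That region was 1 unbroken peak in both GFP libraries, of 1202 and 1178 bp, and 2 peaks in both SMARCB1 libraries. The bases without a call between the 2 peaks were chr5:140700380-140700467 in SMARCB1 replicate 1, which is 88 bp, and chr5:140700374-140700485 in SMARCB1 replicate 2, which is 112 bp. The first of the 2 peaks was the higher in both libraries, at fold 10.3 against 6.22 and 8.66 against 4.78. Length under peaks in this interval was therefore 1.20 and 1.18 kb in the GFP libraries and 1.07 and 0.998 kb in the SMARCB1 libraries. The arms did not overlap (difference -0.154 kb, exact two-sided permutation p = 0.333, Benjamini-Hochberg adjusted over the 5 sections 0.833). The difference was -0.432 kb over the strongest 20000 peaks, and -0.0375 kb with the hand-set borders 10 kb lower, where a border crosses this region.

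In the gamma section, peaks covered 12 and 12.2 kb in the GFP libraries and 10.5 and 7.73 kb in the SMARCB1 libraries, with means of 12.1 ± 0.163 and 9.09 ± 1.92 kb (SD, n = 2 each, exact two-sided permutation p = 0.333, adjusted 0.833). The difference was -2.98 kb. It was -1.62 kb without SMARCB1 replicate 2, and -0.197 kb over the strongest 20000 peaks of each list, which kept only the widest peak of the section. Between its start and the run of peaks at its end, where RefSeq orders most of the variable gamma genes, the section had 3 weak peaks, all of GFP libraries. GFP replicate 1 had a peak at chr5:140797284-140797647 with fold 4.60 and 12 summit fragments. GFP replicate 2 had peaks at chr5:140797795-140798206, with fold 3.59 and 16 fragments, and at chr5:140798450-140798839, with fold 3.16 and 14 fragments. The peaks of the 2 libraries lay next to each other without sharing a base. No SMARCB1 peak lay in the gamma section before the run at its end, and the stretches without a peak on either side of the GFP peaks were 96.2 and 87.7 kb long in the pooled lists.

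Merging the overlapping peaks of the 4 libraries gave 7 regions in the clusters. Of these, 2 had a peak in all 4 libraries, 4 in 1 library, and the remaining region, chr5:140887247-140887515, had fold 3.58 in GFP replicate 1 and 2.71 in SMARCB1 replicate 1. No region had peaks in both SMARCB1 libraries and neither GFP library, against 17.5% of the 167933 merged regions of the genome. None had peaks in both GFP libraries and neither SMARCB1 library, against 3.94% of the genome's regions. The flanks had 42 merged regions, of which 4 were present in both SMARCB1 libraries alone and 1 in both GFP libraries alone. These counts rest on the overlap rule: when peaks within 1 kb were joined, the weak gamma peaks of the GFP libraries became 1 region found in both of them and in no SMARCB1 library.

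The end of the gamma section held the main acetylated stretch. Without an annotation of the peaks' build, neither the gamma constant exons nor DIAPH1, the next gene in order, could be placed against it. Peaks joined across distances of up to 5 kb formed 1 run in each library that crossed the end of the window. It was 22.7 kb long with 12 peaks in GFP replicate 1 and 21.1 kb with 14 peaks in GFP replicate 2. In SMARCB1 replicate 1 it was 22.2 kb long with 16 peaks and in SMARCB1 replicate 2 it was 20.3 kb long with 15 peaks. The run began at position 140886505, 140887598, 140887316 and 140889953 in the same order of libraries, and ended between 140908744 and 140910204. Both SMARCB1 ends, at 140909484 and 140910204, lay beyond both GFP ends, and the starts overlapped between arms.

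Peaks filled 17.1 and 18 kb of the run in the GFP libraries and 16.2 and 13 kb in the SMARCB1 libraries. As shares of the run, these were 75.6% and 85.0% against 73.2% and 64.3%. Both SMARCB1 libraries were below both GFP libraries (difference -2.92 kb, exact two-sided permutation p = 0.333), and the difference was -1.31 kb without SMARCB1 replicate 2 and -4.53 kb without SMARCB1 replicate 1. Over all peaks, most of the difference lay inside the clusters, where they covered 11.6 and 11.4 kb against 10.5 and 7.73 kb. Beyond the window they covered 5.53 and 6.59 kb against 5.79 and 5.29 kb, which overlapped. Over the strongest 20000 peaks this was otherwise: the run was covered over 11.2 and 11.9 kb against 6.73 and 6.80 kb, a difference of -4.78 kb, of which the gamma section held -0.197 kb. Of 21.4 kb that any library covered, 9.74 kb, or 45.5%, was covered in all 4. A further 2.32 kb was covered in both GFP libraries and neither SMARCB1 library, and 0.547 kb in both SMARCB1 libraries and neither GFP library. The Jaccard index of covered bases was 0.791 between the GFP libraries, 0.657 between the SMARCB1 libraries and from 0.561 to 0.70 between libraries of different arms.

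**Figure D3:**
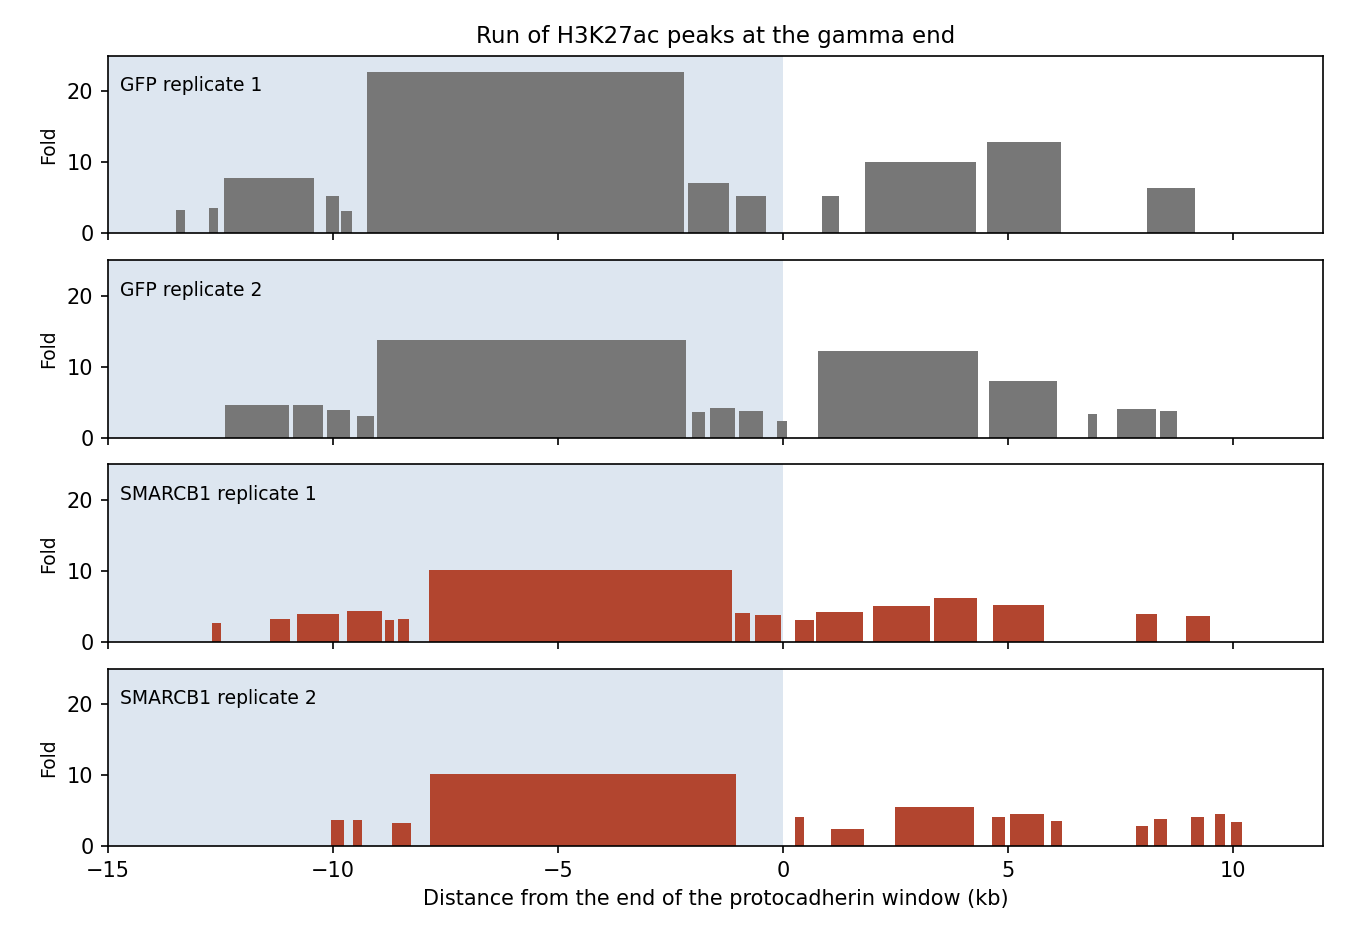
H3K27ac peaks around the end of the protocadherin window by distance from that end (kb, horizontal, shaded inside the window), each drawn to scale at its fold enrichment at the summit (vertical). The widest peak spans from 9.26 to 2.20 kb before the end in GFP replicate 1 and from 7.85 to 1.04 kb before it in SMARCB1 replicate 2, and weaker peaks flank it in each library.

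One wide peak formed the core of the run. It covered chr5:140890746-140897799 in GFP replicate 1 and chr5:140890983-140897850 in GFP replicate 2. In SMARCB1 replicate 1 it covered chr5:140892135-140898862 and in SMARCB1 replicate 2 it covered chr5:140892155-140898955. Its width was 7054, 6868, 6728 and 6801 bp, when the median peak of a list was between 379 and 415 bp wide. Only 1.41%, 1.89%, 1.05% and 0.712% of the peaks of the respective lists were wider. Fold at its summit was 22.7 and 13.7 in the GFP libraries and 10.1 and 10.2 in the SMARCB1 libraries. The summits held 63, 64, 70 and 49 fragments, which overlapped between arms. The background behind these summits differed between libraries, lowest in GFP replicate 1 at 1.82 and highest in SMARCB1 replicate 1. The counts are therefore not on a common scale, and their overlap does not show that signal was alike. On the closest backgrounds, 3.74 in GFP replicate 2 and 3.89 in SMARCB1 replicate 2, the summits held 64 and 49 fragments.

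The widest peak lay nearer to the end of the window in both SMARCB1 libraries while its width changed little. Its start was 1.28 kb further on than in the GFP libraries, with the 2 GFP starts 237 bp apart and the 2 SMARCB1 starts 20 bp apart. Its end was 1.08 kb further on, with 51 bp between the GFP libraries and 93 bp between the SMARCB1 libraries. Neither edge overlapped between the arms, which for each edge is an exact two-sided permutation p of 0.333. Across the genome, 840 regions had overlapping peaks of at least 5 kb in all 4 libraries, and in 124 of them both edges lay to the same side in both SMARCB1 libraries, which is 14.8%. The edges depend on where neighbouring calls are joined. The bases from the GFP start up to the SMARCB1 start held peaks of their own in the SMARCB1 libraries, at fold 3.05 to 4.39 in replicate 1 and at fold 3.31 in replicate 2.

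At the upstream edge of the run, both GFP libraries had a peak from 140887571 or 140887598 onwards, of 2000 bp with fold 7.78 in GFP replicate 1 and of 1433 bp with fold 4.57 in GFP replicate 2. In SMARCB1 replicate 1 the peaks over these bases had fold 3.22 and 3.89. In SMARCB1 replicate 2 no peak began before 140889953.

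The authors' deposited tables of stitched regions, which join peaks of 1 library away from transcription starts, held 1 region each that overlapped the clusters. In each library it had the borders of the run at the gamma end, and it joined 12, 14, 16 and 15 peaks. In the authors' deposited tables its rank was 1579 of 26982 regions in GFP replicate 1 and 663 of 19377 in GFP replicate 2. It was 1129 of 36063 in SMARCB1 replicate 1 and 1832 of 30305 in SMARCB1 replicate 2. The authors' deposited tables marked it as a super-enhancer only in SMARCB1 replicate 1. In GFP replicate 2 it stood just past the last marked rank of 649, and the last marked ranks of the others were 910, 2003 and 1521. As deposited, the mark was not shared by the libraries of an arm. From 76 to 115 other regions of a table carried the same identifier as this one, so its signal was not read as its own. Rank and mark are set by signal, so the same limit applies to them. They are given only as deposited, and nothing is concluded from them on the arms.

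In the flanks, acetylation was spread over many shorter regions. Named by the median fold over the 4 libraries, which gives no common scale, were upstream chr5:140026053-140027236, with a median of 11.9, chr5:140071049-140072469 with 10.7 and chr5:140027418-140028334 with 9.06. The last of these was not among the 3 highest upstream regions in any single library. Its fold was 10.3 and 8.87 in the GFP libraries and 9.26 and 6.34 in the SMARCB1 libraries. The last upstream region before the alpha genes was chr5:140097962-140098489, with fold 9.92, 8.02, 4.06 and 5.12 in the 4 libraries. Downstream they were chr5:140997107-140998591 with a median fold of 10.9, chr5:141015280-141016449 with 8.69 and chr5:140900735-140904325, part of the run at the gamma end, with 8.13. Read by library, peaks covered 10.2, 8.14, 10.5 and 8.04 kb of the upstream flank and 9.35, 11.2, 10.3 and 8.75 kb of the downstream flank. The arms overlapped in both flanks (exact two-sided permutation p = 1 and p = 0.667).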

How the data were processed

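Peaks came from 4 deposited H3K27ac lists, 1 for each library. The authors called them with MACS2 on hg19, per the file names and peak names. BWA 0.7.12-r1039, SAMtools and bedtools are named in the submitters' processing notes. The fold enrichment (a ratio), -log10 p, -log10 q and score of each peak are the authors' deposited values, and fold was used to describe and rank peaks within a list, except that flank regions were named by their median fold over the lists. The number of joined peaks (a count), rank and super-enhancer mark of stitched regions were deposited by the authors. There, 8 columns of per-sample values were not used.

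Members and gene lists were chosen with earlier results of these data known. Section borders were set by hand from the gene order. Overlap was counted from 1 bp. Named were regions with peaks in 2 or more libraries, the strongest peak of each section and library, and the 3 regions of highest median fold in each flank. The weak peaks of the gamma genes and of the run's upstream edge, and the last upstream region before the alpha genes, were singled out after their values were seen. Summit fragments were solved from fold and p under a Poisson model to a tolerance of 0.001, for at least 99.8% of peaks. In SMARCB1 replicate 1 this needed a scale of 0.855, which its background values include and its fragment numbers do not. Sequences were matched by symbol to RefSeq promoters of GRCh38.p14. Arms were compared by exact permutation over libraries. The run at the gamma end, the 10 kb bins, the 750 kb windows and the edges of wide peaks were added after the data were seen. Alternatives took the strongest 20000 peaks, a minimum -log10 q of 5, lists of equal length, other overlap rules, borders moved by 10 kb, leaving out each library and a replicate block. Scripts were tested on simulated data and run in Python 3.11.15 with numpy 2.4.6, pandas 2.3.3 and scipy 1.17.1.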

Additional observations from a re-analysis of the deposited data

How the results depend on the processing

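Of 117 alternative values, 103 kept the direction and side of the threshold or stayed within the stated range of the value reported. Among the 103 are all values for the alpha and beta sections and the interval between them. Those sections hold no peak in any library, so their values could not change and say nothing on robustness. Over the strongest 20000 peaks, the difference between arms (SMARCB1 minus GFP) in peak number became 0.50, that in peaks per 100000 became 2.50, and that between clusters and flanks became 1.91 percentage points. The last was also 0.385 over peaks with a -log10 q of at least 5 and 0.408 with equal numbers of peaks. Leaving out each library in turn gave -5 to 0 for peak number, -2.70 to 1.38 kb for the flanks and -0.577 to 0.0700 percentage points for clusters against flanks. The flanks reached 1.38 kb without SMARCB1 replicate 2. Against -0.659 kb over all peaks, they gave -3.09 kb at a -log10 q of at least 5, -3.59 kb with equal numbers and -7.98 kb over the strongest 20000. Reciprocal overlap of 50% gave 2 regions found in both SMARCB1 libraries alone and 2 in both GFP libraries alone. Joining peaks within 1 kb gave 1 of the latter, and leaving out a library gave 0 to 2. The cause of these changes was not tested, except that fewer peaks enter the stricter lists.

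With the replicate block, the covered length of the clusters differed by -3.14 kb, from -1.63 kb in pair 1 and -4.64 kb in pair 2 (exact sign-flip p = 0.50, the smallest that 2 pairs allow). Peak number differed by 1 and -6 in the same pairs. The labels do not tie a replicate number to a shared culture or day, so the numbers were not taken to pair the libraries. Depth limits the peaks that can be called: summits under 7 to 13 fragments on the usual background were in no list.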
